A study of Mus musculus with 2 samples.

Results

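Peaks of H3K36me2 that lay inside genes, beyond the first intron, were examined in the colons of mice with (*Nsd2* fl/fl) and without (*Nsd2* ΔIE) epithelial NSD2. They were chosen from the deposited annotation of the peaks: an intron label whose intron number was 2 or higher. The *Nsd2* fl/fl list, called fl/fl from here on, held 2717 such peaks among 19976, and the *Nsd2* ΔIE list, called ΔIE, held 3676 among 23518, so that 6393 of 43494 peaks in all were later-intron peaks. The data comprised 1 CUT&Tag library per genotype, each from colons of male C57BL/6J littermates that received a high-fat, high-cholesterol diet (HFCD) from 7 to 8 weeks of age, for 18 weeks by the methods of the study and for 16 weeks by the deposited design text. In *Nsd2* fl/fl mice the *Nsd2* gene is floxed and intact, and in *Nsd2* ΔIE mice Cre under the Villin promoter deletes it in intestinal epithelium. The other cells of the colon keep NSD2, and how many animals went into a library was not given in the sources used here. With 1 library per genotype, no difference between the genotypes has a replicate check and no test was made. The number of reads behind each list is unknown.

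NSD2 is a histone methyltransferase that places 2 methyl groups on lysine 36 of histone H3. H3K36me2 is known for broad domains that spread over gene bodies and the space between genes, where it borders the more transcription-bound H3K36me3 and keeps away the Polycomb mark H3K27me3. Introns make up most of the length of long genes, and they hold enhancers, splicing signals and the genes of many small RNAs. CUT&Tag brings the transposase Tn5 to the mark by way of an antibody, and the DNA tagged nearby is sequenced. An intron label was given to a peak that met no promoter (within 3 kb of a transcription start site, TSS), no untranslated region and no exon, so the width of these peaks is bound to the way they were chosen. Each peak carried a pair of gene names, the gene in whose intron it lay, called the host here, and the gene of the nearest TSS. Peaks were assigned to the host throughout unless stated otherwise.

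The difference between the names is plain at microRNA genes that lie in introns. A microRNA gene was the nearest TSS of 52 later-intron peaks in fl/fl and of 79 in ΔIE, at 36 and 51 microRNA genes, of which 21 were the same. The mature sequences of 3 of them are shown because peaks of both libraries overlapped next to each inside a known host gene. They were chosen after the values were seen. The sequences are those of RefSeq (GRCm38.p6), 5′ to 3′, with the seed, bases 2 to 8, in capitals. RefSeq held 59 of the 66 microRNA genes named. They tell which RNAs the host introns carry, and no microRNA was measured.
mmu-miR-346-5p (in *Grid1*): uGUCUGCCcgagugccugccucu
mmu-miR-346-3p (in *Grid1*): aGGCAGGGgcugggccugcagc
mmu-miR-218-5p (in *Slit3*): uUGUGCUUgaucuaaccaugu
mmu-miR-218-2-3p (in *Slit3*): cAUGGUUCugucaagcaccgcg
mmu-miR-342-5p (in *Evl*): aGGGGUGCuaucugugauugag
mmu-miR-342-3p (in *Evl*): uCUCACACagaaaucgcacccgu
In intron 2 of 16 of *Grid1*, which encodes a delta glutamate receptor subunit, a fl/fl peak of 11295 bp ended 5135 bp before the start of *Mir346*, and a ΔIE peak of 4914 bp lay within it. On the other side of *Mir346*, peaks of 4857 bp and 4490 bp lay over each other, at chr14:34621073-34625929 and chr14:34621061-34625550. In intron 12 of 35 of *Slit3*, an axon guidance ligand, the peak nearest to *Mir218-2* was 4921 bp wide in fl/fl and 4474 bp in ΔIE. In intron 4 of 14 of *Evl*, an actin regulator, the peaks next to *Mir342* were 6543 bp and 3547 bp wide. These 6 RNAs had 6 different seeds.

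Later-intron peaks were more numerous in the ΔIE list but covered nearly the same length of DNA when each list was taken whole. They made up 13.6% of the fl/fl peaks (95% Wilson interval 13.1% to 14.1%) and 15.6% of the ΔIE peaks (15.2% to 16.1%), and these intervals cover counting error only. Their number was 1.35 times as high in ΔIE, against 1.18 times over all peaks. They covered 12933186 bp in fl/fl and 12821253 bp in ΔIE, a log2 ratio of -0.01 (-0.24 when ΔIE was restricted to its 19976 peaks of highest summed signal, as many as in fl/fl), whereas the length of all peaks had a log2 ratio of -0.23. The plot of number and length by feature places promoter peaks lower, with a number ratio of 1.02 and a log2 length ratio of -0.45. The lowest values were those of the 5′ UTR, at 0.983 and -0.49, and the highest those downstream of the gene end, at 1.41 and 0.02. First-intron peaks, which the choice just left out, numbered 1487 and 1881 and had a log2 length ratio of -0.08. Distal intergenic peaks, with a number ratio of 1.32 and a log2 length ratio of -0.04, had values near those of later introns.

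**Figure D1:**
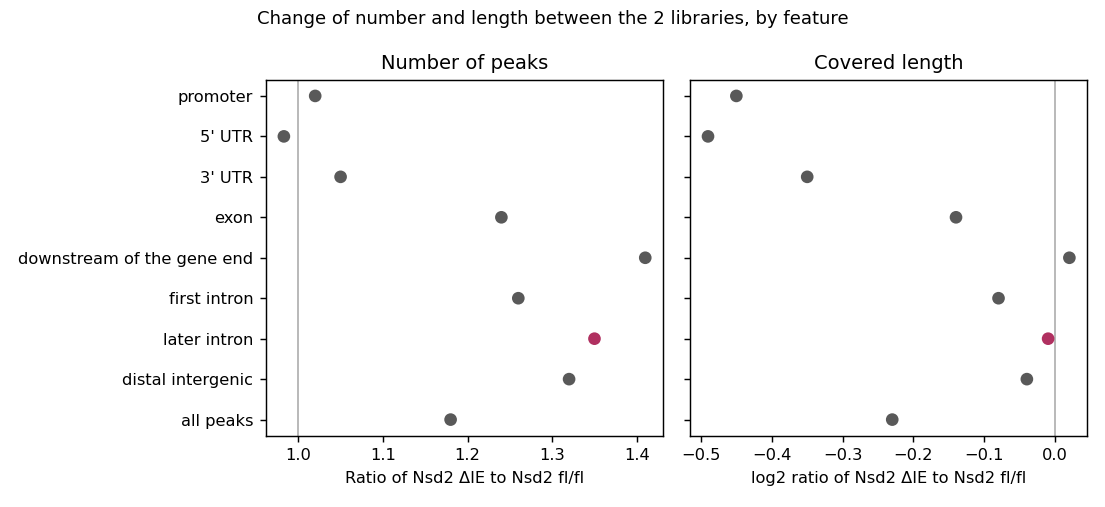
Left, number of ΔIE peaks divided by the number of fl/fl peaks for each genomic feature; right, log2 ratio of the length those peaks cover. Each point is 1 feature (later introns in red) and vertical lines mark equality; later introns lay at 1.35 and -0.01, and over all peaks the values were 1.18 and -0.23, each list being used with its own lowest summed signal.

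The lists did not reach down to the same signal. The summed signal of a peak, the authors' value for it, had a lowest value of 21783 in fl/fl and 16571 in ΔIE. Restricted to peaks at or above 21783, which leaves the fl/fl list whole and can only take length from ΔIE, the ΔIE list kept 9617 peaks, of which 1191 were later-intron peaks, a share of 12.4%. The log2 ratio of the number of later-intron peaks turned from 0.44 to -1.19, and that of their length moved from -0.01 to -1.31. Whether the signals of the lists share a scale is not given in the sources used here, so genotype and lowest signal cannot be told apart in these numbers. Later introns made up less of the stronger peaks in both lists. Among the weakest 25% by summed signal, 16.5% of fl/fl and 18.4% of ΔIE peaks were later-intron peaks, and among the strongest 25% these were 9.09% and 10.8%. This was shared with similar features. From the weakest to the strongest 25%, distal intergenic peaks went from 1107 to 519 in fl/fl and from 1411 to 796 in ΔIE. First-intron peaks went from 427 to 270 and from 514 to 387. Promoter and exon peaks were more numerous among the strongest 25%.

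Later-intron peaks were among the narrower ones of each list. Their median width was 4494 bp in fl/fl (quartiles 3808 and 5299 bp) and 3285 bp in ΔIE (2779 and 3939 bp), where all peaks had 4643 and 3426 bp. The widest reached 15761 bp, in *Spsb4*, and 14506 bp, in *Shisal1*. With each list at its own lowest summed signal, the log2 ratio of the median widths was -0.45 for later-intron peaks. It was -0.43 for first-intron and -0.44 for promoter peaks, so the narrowing of the ΔIE list was alike over these features. At a lowest summed signal of 21783 in both lists, the median later-intron width was 4077 bp in ΔIE and still 4494 bp in fl/fl. The size of the narrowing therefore depends on the lowest signal of each list. Widths of the other features at that signal are not given here. Signal per bp, the summed signal divided by the width, had a median of 6.05 in fl/fl and 6.28 in ΔIE, just under the 6.14 and 6.32 of all peaks. The place of highest signal lay at 50.1% of the width in the median peak of either list. It varied widely between peaks, with quartiles of 29.45% and 70.44% in fl/fl and 30.44% and 70.13% in ΔIE.

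Inside the gene, intron 2 held more later-intron peaks than any other intron number, but most peaks lay further on. Intron 2 held 930 of them in fl/fl (34.2%) and 1202 in ΔIE (32.7%), and introns 11 and later held 13.5% and 15.2%. Counted as a share of the introns of its transcript, the median peak stood at 43.8% in fl/fl and 44.6% in ΔIE (quartiles 20% and 75% in both). The median host transcript had 12 introns in both lists, and 374 and 514 peaks lay in the last intron. The farthest was in intron 86 in fl/fl and intron 82 in ΔIE. For 1404 and 1886 peaks, the ends of the host transcript were known from the lists themselves. These transcripts were long, with a median of 201989 bp and 181476 bp. Along them the median peak centre lay at 54.9% and 55.4% of the way from the TSS. The first 20% of the transcript held 10.9% of these peaks in either list, and the last 20% held 16.6% and 18.6%. First introns and the surroundings of a TSS were left out by the choice of peaks, so the low share near the TSS is bound to it. Width and signal per bp hardly moved with the number of the intron: the median width was 4512 bp in intron 2 and 4464 bp in intron 11 or later in fl/fl, and 3288 and 3259 bp in ΔIE.

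**Figure D2:**
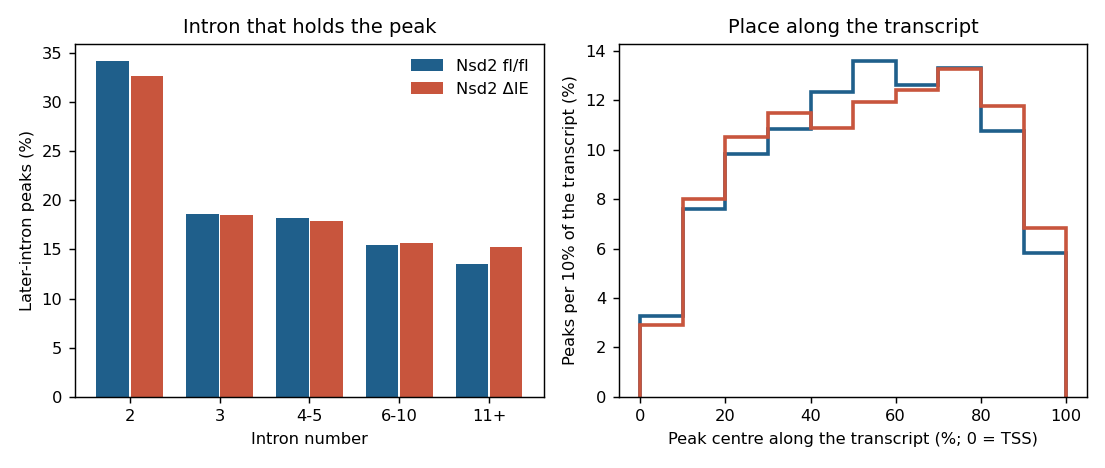
Left, percentage of the later-intron peaks of each list by the number of the intron; right, percentage of later-intron peaks in each 10% of the host transcript, for the 1404 fl/fl and 1886 ΔIE peaks whose transcript ends were known. Intron 2 held the most peaks (34.2% and 32.7%), and the lists followed each other along the transcript.

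The gene of the nearest TSS was not the host for 1495 later-intron peaks in fl/fl (55.0%) and for 2036 in ΔIE (55.4%). Of these, 71.4% and 70.5% were given to a non-coding transcript. The host transcript itself was protein-coding for 85.6% and 84.9%. The distance to the nearest TSS had a median of 27103 bp and 27079 bp, and lay beyond 100 kb for 258 and 398 peaks. A host without any peak of its own by nearest TSS was common: 350 of the 1466 hosts in fl/fl (23.9%) and 419 of 1852 in ΔIE (22.6%). A promoter peak stood at 26.9% and 27.1% of the hosts. The same share over all named genes is not given here, so these values do not set hosts apart from other genes.

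Few later-intron peaks lay at the same place in both libraries. A peak of the other library, with at least 1 bp in common, overlapped 682 of the fl/fl peaks, or 25.1% (23.5% to 26.8%), and 867 of the ΔIE peaks, or 23.6% (22.2% to 25%). Over all peaks these shares were 34.1% and 30.7%, and exon peaks had 37.9% and 35.6%. First-intron peaks, at 28.1% and 26.4%, had intervals that met those of the later introns, and distal intergenic peaks were lower at 21.8% and 18.3%. The plot of shared peaks shows this order. When the overlap had to reach 50% of both peaks, 10.9% and 8.71% of the later-intron peaks were shared, and with a lowest summed signal of 21783 in both lists 13.5% and 32.7% were. The share depended on signal: from the weakest to the strongest 25% of the list it was 16.8%, 21.1%, 27.1% and 44.1% in fl/fl. In ΔIE it was 18.1%, 19.7%, 24.1% and 38.4%. Exon peaks of the strongest 25% had 57.6% and 52.8%, above the intervals of the later introns there, 39.6% to 48.7% and 34.7% to 42.3%. First-intron peaks of the strongest 25% had 44.1% and 42.1%, which lay within those intervals, and distal intergenic peaks had 37.4% and 31.7%.

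**Figure D3:**
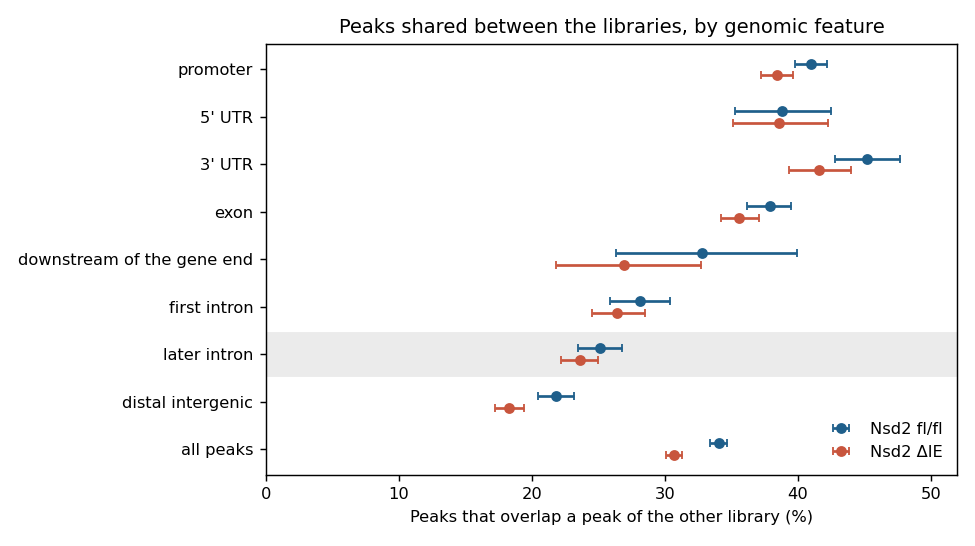
Percentage of the peaks of each feature that share at least 1 bp with a peak of the other library, with 95% Wilson intervals for counting error only; points are the 2 lists and the grey band marks later introns. Later introns stood at 25.1% in fl/fl and 23.6% in ΔIE, below promoters (41.0% and 38.4%) and above distal intergenic peaks (21.8% and 18.3%).

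The counterpart was not always a later-intron peak. Of the shared fl/fl peaks, 91 overlapped only peaks of other features, and of the shared ΔIE peaks 254 did, most often exon peaks. The ΔIE peaks were covered by their counterpart over 76.5% of their width in the median and the fl/fl peaks over 50%. Overlaps between later-intron peaks made 621 pairs, all within the same host, with a median overlap of 2605 bp, and 271 of them covered at least 50% of both peaks. Of the later-intron peaks, 54.4% in fl/fl and 45.6% in ΔIE lay in an intron that held a peak in both libraries, but of these only 40.0% and 36.6% overlapped there. Where a host had peaks in both libraries and they did not overlap, the gap to the nearest had a median of 17923 bp seen from fl/fl and 21509 bp seen from ΔIE.

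The widest overlap was in intron 4 of 28 of *Vav2*. Its fl/fl peak was 11174 bp wide (chr2:27210918-27222091) and the ΔIE peak of 8901 bp lay wholly inside. *Ralgps1*, *Cacna2d1*, *Zbtb7c*, *Slit3*, *Rbm19*, *Lrp5* and *Lmf1* followed, with overlaps of 7940 bp down to 6232 bp. *Lrp5* encodes a Wnt co-receptor, and its peaks in intron 5 of 22 were 7443 bp and 8065 bp wide. In intron 21 of 23 of *Rbm19*, a factor of ribosome biogenesis, a region of 15215 bp in fl/fl faced 6808 bp in ΔIE. Signal per bp there was 6.95 in fl/fl and 7.30 in ΔIE. Whether these values share a scale is not given, so the heights of the regions were not compared.

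The peaks lay in 1466 host genes in fl/fl and 1852 in ΔIE, which are 7.61% and 9.61% of the 19275 genes that either list names. Both libraries had a later-intron peak in 887 hosts, 60.5% of the fl/fl and 47.9% of the ΔIE hosts. In 413 of these 887 (46.6%) the peaks overlapped, and in 474 they did not. A single later-intron peak was the rule, in 63.8% and 62.9% of the hosts, while 16 hosts in fl/fl and 32 in ΔIE had 10 or more. Comparing the length per host, 915 of 2431 hosts had less in ΔIE, 1170 more and 346 similar length, where less and more mean a log2 ratio beyond 0.5 or a peak in 1 library only. These are 37.6%, 48.1% and 14.2%, beside 43.3%, 39.7% and 16.9% of the genes when all peaks were given to the nearest TSS. With the same restriction to equal numbers of peaks, 973 hosts had less and 950 more. At a lowest summed signal of 21783 in both lists, ΔIE had 776 hosts, and the hosts with less numbered 1219 and those with more 343. Among hosts with a peak in both libraries, 336 had less and 205 more, and the median log2 ratio was -0.24. A host in 1 library only could still have a peak of another feature at the same place in the other: this held for 43 of the 579 hosts found in fl/fl only and for 132 of the 965 found in ΔIE only.

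*Shank2*, *Grid1* and *Cdh4* had the most later-intron length in fl/fl, and *Cdh4*, *Ptprn2* and *Camta1* in ΔIE. In *Shank2*, a scaffold of the postsynaptic density on chromosome 7 (143531819 to 143979780), 15 peaks of fl/fl covered 88691 bp and 8 peaks of ΔIE covered 39044 bp. Here 8 pairs of peaks overlapped, so that each ΔIE peak met a fl/fl peak. *Grid1*, on chromosome 14 (34542093 to 35303072), had 83383 bp in 16 peaks and 56353 bp in 12. *Cdh4*, which encodes a classical cadherin on chromosome 2 (179084216 to 179541014), had 80705 bp in 15 peaks and 78849 bp in 23 peaks. With each list at its own lowest summed signal, the length in *Cdh4* hardly differed but was divided into more and narrower regions in ΔIE. At 21783 in both lists, ΔIE kept 8 peaks there, fewer than the 15 of fl/fl. *Ptprn2*, a receptor-type phosphatase of secretory vesicles, had 75271 bp and 68454 bp, and *Cdh13*, a cadherin anchored to the membrane by a lipid, 68821 bp and 51430 bp. *Cacna2d1*, an auxiliary calcium channel subunit, had 63850 bp and 49844 bp. In the ΔIE list *Camta1*, a transcription factor gene, had 67850 bp, and 57529 bp in fl/fl. *Wwox* had 41284 bp and 55785 bp and the teneurin gene *Tenm4* 41889 bp and 52900 bp, log2 ratios of 0.43 and 0.34 that stayed below the limit. At a lowest summed signal of 21783, *Camta1*, *Wwox* and *Tenm4* turned from a positive to a negative log2 ratio, *Wwox* within the limit on both sides, with ΔIE lengths of 36386 bp, 32521 bp and 18432 bp (log2 ratios of -0.66, -0.34 and -1.18). *Cdh4* and *Ptprn2* then had 33249 bp and 32501 bp, and *Cdh13* and *Cacna2d1* 20637 bp and 29527 bp.

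**Figure D4:**
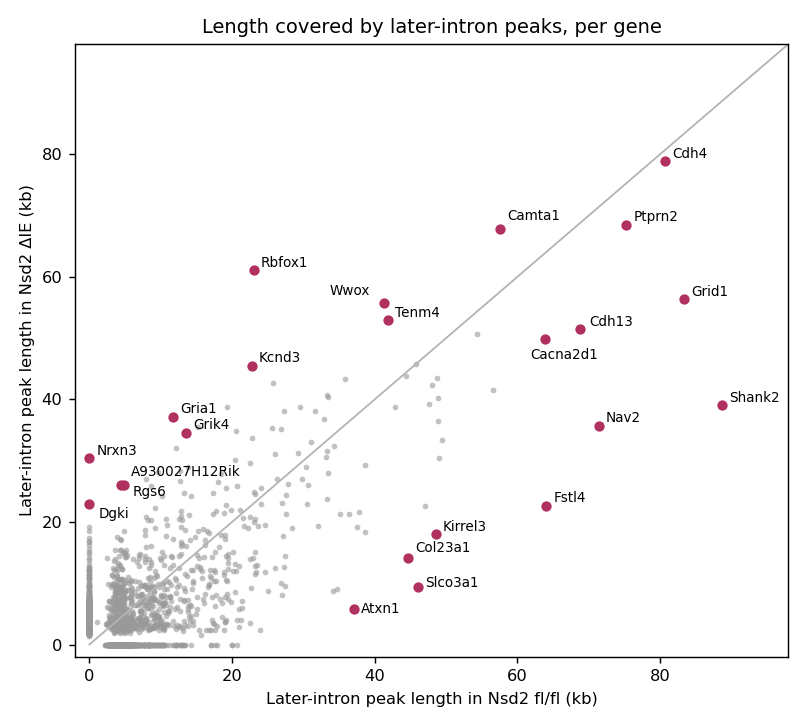
Length covered by later-intron peaks per host gene, in kb, in fl/fl (x axis) against ΔIE (y axis); each grey point is 1 of the 2431 hosts, red points are the genes with the most length in either list or with the largest difference, and the line marks equal length. *Cdh4* lay on the line, *Shank2*, *Fstl4* and *Slco3a1* far below it, and *Rbfox1* and *Nrxn3* above it, with each list used at its own lowest summed signal.

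After *Shank2*, the difference toward less length in ΔIE was largest in *Fstl4*, a follistatin-like gene, with 64040 bp in 11 peaks of fl/fl and 22646 bp in 7 peaks of ΔIE. *Slco3a1*, which encodes an organic anion transporter, had 46024 bp in 8 peaks and 9371 bp in 3 peaks, with no overlap between them. In *Slco3a1*, 7 of the fl/fl peaks stood in intron 2 of 10, spread from 74011645 to 74143558 on chromosome 7. *Nav2*, *Atxn1*, *Kirrel3*, *Col23a1* and *Grid1* completed these 8, with 27030 to 49647 bp less over all 8. *Atxn1* had 37036 bp and 5723 bp, again without an overlap. At the common lowest signal of 21783, *Slco3a1* and *Atxn1* had no ΔIE peak left.

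The difference toward more length in ΔIE was largest in *Rbfox1*, a splicing regulator of neurons and muscle on chromosome 16 (5702566 to 7230344). It had 23032 bp in 5 fl/fl peaks and 61061 bp in 16 ΔIE peaks, and no peak of one library met a peak of the other. At the lowest summed signal of 21783, however, *Rbfox1* had 22020 bp in 4 ΔIE peaks, a log2 ratio of -0.06. *Nrxn3*, a presynaptic adhesion gene on chromosome 12 (88689454 to 90301709), had no later-intron peak in fl/fl and 8 in ΔIE, of 2226 to 5784 bp, together 30373 bp. These peaks were scattered from intron 2 to intron 17 of 22. *Dgki*, a diacylglycerol kinase gene, likewise had none in fl/fl and 22943 bp in 5 peaks of ΔIE. *Gria1*, an AMPA receptor subunit gene, had 11744 bp and 37200 bp. *Kcnd3*, a potassium channel gene, had 22753 bp and 45481 bp, and *Grik4*, a kainate receptor gene, 13572 bp and 34507 bp. *Rgs6* and *A930027H12Rik* had 1 peak each in fl/fl and 7 in ΔIE. Of these 8 genes, *Nrxn3*, *Gria1*, *Dgki*, *Rgs6* and *A930027H12Rik* still had more length at the common lowest signal, and *Rbfox1*, *Kcnd3* and *Grik4* were within the limit. *Nrxn3* then had 11459 bp in 2 ΔIE peaks. The ΔIE lengths of *Gria1*, *Dgki*, *Rgs6* and *A930027H12Rik* were 24688, 17216, 12862 and 14335 bp.

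**Figure D5:**
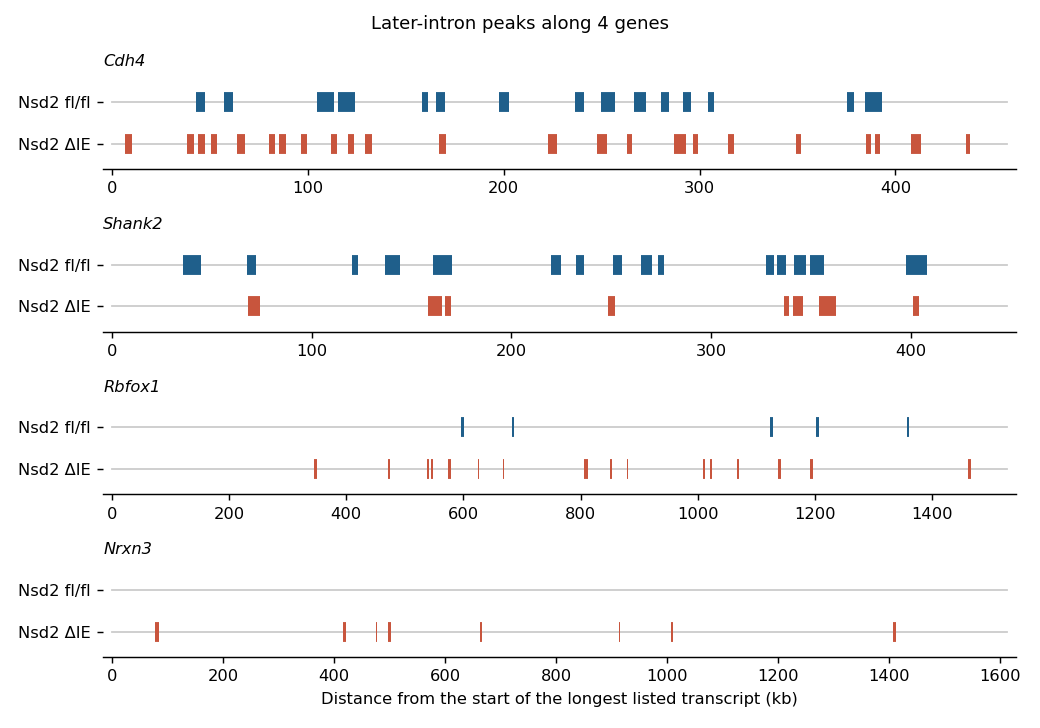
Later-intron peaks (blocks, to scale) of fl/fl (blue) and ΔIE (red) along 4 host genes; the x axis is the distance in kb from the start of the longest transcript in the lists. *Cdh4* held 15 and 23 peaks, *Shank2* 15 and 8, *Rbfox1* 5 and 16 with none at the same place, and *Nrxn3* 0 and 8. Each list was used at its own lowest summed signal.

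Many later-intron peaks came in rows within an intron. An intron with at least 2 of them occurred 419 times in fl/fl and 577 times in ΔIE, and these introns held 40.2% and 42.4% of the peaks. Neighbours in such an intron were separated by a median of 11829 bp and 11243 bp. Intron 2 of 39 of *Nav2*, a neuron navigator gene, held the most in fl/fl, 10 peaks over 392629 bp of chromosome 7, which covered 13.7% of that span. In ΔIE, intron 2 of 16 of *Gse1*, a chromatin protein gene on chromosome 8, held the most, 13 peaks with 48029 bp. The same *Gse1* intron had 8 peaks with 49988 bp in fl/fl. Intron 2 of *Cdh4* and intron 2 of *Kcnd3* followed in ΔIE, with 12 and 11 peaks. Shared peaks were more frequent in hosts with many: 36.5% in fl/fl hosts with 10 or more peaks and 21.4% in hosts with 1, and 29.6% and 20.8% in ΔIE.

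By function, genes of neuronal adhesion and synapses were hosts more often than those of the other lists, with a later-intron peak in 29 of 46 in fl/fl and 34 of 46 in ΔIE. Of the 46 genes, 41 are named in either list, and among these 41 the hosts made 70.7% and 82.9%, beside 7.61% and 9.61% of the 19275 genes that either list names. The percentages of the lists that follow are likewise over the genes of a list that either library names, and are to be read against 7.61% in fl/fl and 9.61% in ΔIE. Gene length was not matched in this comparison, and such genes are known to be long. *Grid1*, *Tenm4*, *Auts2* and *Rbfox1* had the most length in it. *Auts2*, a neurodevelopmental regulator, had 45791 bp in fl/fl and 45739 bp in ΔIE. Of this list, 10 genes had less, 18 more and 9 similar length, where over all hosts these were 37.6%, 48.1% and 14.2%, and 13 of the 26 with a peak in both libraries had an overlap, near the 46.6% over all such hosts. When peaks were given to the nearest TSS, the list had 13 and 22 genes. With the common lowest signal it had 21 in ΔIE, where 776 of the 19275 named genes were ΔIE hosts. Counts of the other lists at that signal are to be read against that number of all named genes. Of axon guidance genes, 13 of 35 were hosts in each library (43.3%), and 7 in ΔIE with the common lowest signal. *Slit3* had the most length of this list, 44366 bp and 43812 bp with each library at its own lowest signal. *Sema6d*, *Ephb1* and *Ephb2* came next.

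Signalling genes were hosts in shares that differed from list to list. For cAMP and lipid messengers, 14 and 21 of 38 genes (40.0% and 60.0%) were hosts. By length, 10 had less in ΔIE, 12 more and 2 similar, beside 37.6%, 48.1% and 14.2% over all hosts. At the common lowest signal of 21783, 6 of the list were hosts in ΔIE, beside 776 of the 19275 named genes. *Itpr2*, an intracellular calcium release channel, had 27252 and 12609 bp. Of the protein kinase C genes, *Prkce* had 19810 and 6950 bp, *Prkca* 14813 and 17477 bp and *Prkch* 9876 and 14150 bp. In the Wnt and TGF-beta list, 11 and 13 of 41 genes (34.4% and 40.6%) were hosts, and 5 in ΔIE at that signal, with 7 having less length in ΔIE, 6 more and 4 similar. *Tcf7l2*, the main Wnt effector of the intestinal epithelium, had 3 peaks in each library, with 15079 and 12823 bp, and 1 pair overlapped. *Tcf7l1* had 21277 bp in fl/fl and 3969 bp in ΔIE. MAP kinase cascades had 5 and 6 of 32 (20% and 24.0%), and 2 in ΔIE at that signal, with 1 having less, 3 more and 3 similar length. *Mapk4*, *Map2k5*, *Map4k4* and *Map4k5* were hosts in both libraries, *Mapk4* with 8196 and 6808 bp and *Map2k5* with 4707 and 9719 bp. *Mapk14*, the p38 alpha kinase, was a host only in fl/fl, at 5910 bp, and *Mapk9*, a JNK, and *Map3k5* only in ΔIE, at 4050 and 2977 bp.

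Of 29 tight junction and adhesion genes of the epithelial barrier, the same 6 (30.0%) had a later-intron peak in each library, *Magi2*, *Pard3b*, *Tjp1*, *Pard3*, *Cdh1* and *Magi1*, and in none of the 6 did the later-intron peaks overlap, where 474 of the 887 hosts found in both libraries likewise had no overlap, although the ΔIE peak of *Magi1* met a fl/fl peak of another feature. At the common lowest signal 4 were hosts in ΔIE. *Tjp1*, which encodes the tight junction scaffold ZO-1, had 11443 bp in 2 peaks of fl/fl and 7101 bp in 2 peaks of ΔIE, all in intron 2 of 29. *Cdh1*, which encodes E-cadherin, had a peak of 5765 bp in intron 2 of 15 in fl/fl (chr8:107355700-107361464). In ΔIE the same *Cdh1* intron held 2 peaks, of 4765 bp and 2558 bp, nearer to the TSS. The narrower of these had a summed signal of 18664, and the narrower ΔIE peak of *Tjp1*, of 1927 bp, had 18486. Both signals were below 21783, the lowest value in the fl/fl list.

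Nuclear receptors and coregulators had 10 of 38 genes (31.2%) in each library, with 5 having less length in ΔIE, 6 more and 3 similar, beside 37.6%, 48.1% and 14.2% over all hosts, and 5 hosts in ΔIE at the common lowest signal. *Esrrg*, an oestrogen-related receptor, had 25961 and 31052 bp, and *Rarb*, a retinoic acid receptor, 15050 and 5831 bp. The receptors *Ppard*, *Pparg* and *Nr5a2* and the coactivator *Ppargc1a* had 1 peak each in fl/fl and none in ΔIE, and *Ncoa2*, *Rora*, *Esr1* and *Thra* had peaks in ΔIE only, of 10013, 9567, 3772 and 3584 bp in all. Of genes of fatty acid and cholesterol metabolism, 4 and 5 of 44 (11.1% and 13.9%) were hosts, and 2 in ΔIE at the common lowest signal. Of these, *Abca1*, a cholesterol exporter, had 11665 and 3818 bp, and *Elovl6*, a fatty acid elongase, 14841 bp in ΔIE only. Of the cytokine list 2 and 3 of 38 (7.41% and 11.1%) were hosts, near the shares of all named genes. *Il1r1*, the interleukin-1 receptor, was in both. At the common lowest signal none of the 27 named genes of this list was a ΔIE host, beside 776 of the 19275 named genes in all. Regulators of lymphocytes and blood cells had 14 and 16 of 32 (51.9% and 59.3%), and 9 in ΔIE at that signal, and *Runx1* had 22471 bp in 5 peaks and 29698 bp in 9. *Pax5* and *Ebf1*, factors of B cells, had 23585 and 19365 bp and 14038 and 17091 bp.

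In the unfolded protein response, *Ern1*, which encodes the stress sensor IRE1 alpha, was a host in fl/fl only, with 1 peak of 4774 bp in intron 2 of 20 (chr11:106339623-106344396). It lay 34226 bp from the nearest TSS, with a summed signal of 24513. *Eif2ak3*, the sensor PERK, had 1 peak of 2198 bp in intron 9 of 16 in ΔIE only, and *Edem3*, a factor of protein disposal, 1 of 2931 bp. The summed signals of these ΔIE peaks, 16580 and 20057, were below 21783, the lowest value in the fl/fl list. No other of the 26 genes of this list had one, so that 7.69% and 15.4% of its 13 named genes were hosts, beside 7.61% and 9.61% of all named genes. Of 20 H3K36 enzymes and readers, 15 of them named in either list, none was a host in fl/fl, and *Dnmt3a*, *Kdm4c*, *Smyd2* and *Kdm4b* had 1 peak each in ΔIE (26.7%, beside 9.61% of all named genes), of 2842 to 3027 bp. Their summed signals were 18446, 18954, 19607 and 26508, so that only the peak of *Kdm4b* was above the lowest value of the fl/fl list. The peaks of *Smyd2* and *Kdm4b* overlapped fl/fl peaks of another feature. *Nsd1*, *Nsd2* and *Nsd3* had no later-intron peak in either library.

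Among markers of colon cell types, *Cdh1* alone of 12 epithelial markers had a later-intron peak, in each library (1 of the 7 that either list names, 14.3%), and any peak, by nearest TSS or host, stood at 4 of them in fl/fl and 7 in ΔIE. Markers of smooth muscle and fibroblasts (9 genes) and of immune cells (7) had no later-intron peak. Any peak stood at 4 of the former and 3 of the latter in each library. Among 8 markers of enteric neurons and glia, *Ret* had 2241 bp in fl/fl only, and among 4 endothelial markers *Pecam1* had 3844 bp in ΔIE only, and none at the common lowest signal. Any peak stood at 6 of the enteric markers in each library, and at 2 endothelial markers in fl/fl and 3 in ΔIE. A histone mark is not a measure of expression. Fewer cells of a type and less of the mark in each cell cannot be told apart in whole colon.

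In signal, 1 place stood apart. In the last intron, 3 of 3, of the non-coding gene *Gm36876* on chromosome 11, a region of 1042 bp (108901944 to 108902985) had a summed signal of 134958 in fl/fl, or 129.5 per bp. In ΔIE a region of 696 bp (108902472 to 108903167) had 138256, or 198.6 per bp. These were 21.4 and 31.6 times the median signal per bp of the later-intron peaks of their list. The next highest per bp was 11.1 in *Cphx1* in fl/fl and 13.9 in *Foxn3* in ΔIE, so no other later-intron peak came near it. By summed signal, *Spsb4*, *Rbm19*, *Gse1* and *Prdm16* followed in fl/fl, with 109285 to 93797. In ΔIE these were *Shisal1*, *Dis3l2*, *Casz1* and *Jph3*, with 123223 to 73508. All of these overlapped a peak of the other library.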

How the data were processed

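Whole colons of HFCD-fed mice were profiled by CUT&Tag for H3K36me2, and the authors deposited a separate table of called peaks for each of the 2 libraries. Whether colons were pooled within a library is not given in the sources used here. Per the labels' processing notes, Bowtie2, SEACR, ChIPseeker and deepTools were used; the notes name hg38, but genes and positions are of mouse. Of 8937 genes with the same length in a GRCm38.p6 table, 189 had the same start, so the lists' own coordinates are used and no peak sequence is shown. The control and threshold of peak calling are not given in the sources used here.

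The deposited summed signal of a peak is coverage added up over the peak, with no stated scaling to depth, and the authors' widths and distances to the TSS, in other columns, are in bp. Depth is unknown, so it sets no precision for single peaks. Peaks whose label read intron 2 or later were taken, and the host was the gene of that label. Counts, medians and lengths per host were obtained in pandas 2.3.3 and numpy 2.4.6 (Python 3.11.15), Wilson intervals with scipy 1.17.1, overlaps of at least 1 bp with bedtools 2.31.1 and plots with matplotlib 3.10.9. No peak overlapped another of its list. The functions were tested on simulated lists. With 1 library per genotype, no test was made.

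The peaks, the gene lists and the alternatives were chosen with earlier results of these data known. Genes were named by rule: the 8 hosts with the most length per library, the 8 largest falls and rises, the 5 peaks with the highest summed signal and signal per bp per library, the 8 widest overlaps, up to 4 genes per list by length, *Ern1* and the NSD family. Genes named beyond this rule were chosen after their values were seen. Some results that this rule covers are not reported here. The alternatives were autosomes only, the strongest 50% of each list, equal numbers of peaks, curated transcripts, intron 3 or later, shares of length, a reciprocal overlap of 50%, later-intron peaks of the other library only, the gene of the nearest TSS, a log2 limit of 1 and, added after the data were seen, a common lowest summed signal.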

Additional observations from a re-analysis of the deposited data

How the results depend on the processing

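Recomputed under 10 alternatives and 1 added after the data were seen, 69 of 127 values stayed, 57 moved and 1 reversed. A value stayed if it lay within the counting interval of the value reported. Counts had to lie within 1.5 times the value reported, and the log2 ratio of length within 0.5 of it. On autosomes only, all 22 values stayed. With a common lowest summed signal of 21783, the added alternative, the log2 ratio of the number of later-intron peaks reversed to -1.19 and that of their length was -1.31. The ΔIE list then had 1191 later-intron peaks (12.4%) with a median width of 4077 bp and 6.50 signal per bp, in 776 hosts. Hosts in both libraries numbered 498, and over all hosts 1219 had less, 343 more and 182 similar length. Of the listed genes 72 were hosts in ΔIE, 21 of them in the synapse list. Shared were 13.5% of fl/fl and 32.7% of ΔIE later-intron peaks. With equal numbers of peaks, the share in ΔIE was 15.1%, the log2 number ratio 0.15, the log2 length ratio -0.24 and the shared percentage in fl/fl 22.3%, and 973 hosts had less and 950 more length. In the strongest 50%, later-intron peaks numbered 1111 (11.1%) in fl/fl and 1569 (13.3%) in ΔIE, with widths of 5371 and 3893 bp and 6.19 and 6.48 signal per bp. They lay in 741 and 977 hosts, 376 of them in both, and over all hosts 509 had less, 680 more and 153 similar length. The median distance to the TSS in ΔIE was 25547 bp, and 22.5% and 19.9% were shared. Listed hosts were 71 and 90, and 19 synapse genes in fl/fl. With curated transcripts only, there were 1167 (5.84%) and 1574 (6.69%) peaks, at median distances of 29624 and 28380 bp, and the width in fl/fl was 4537 bp. From intron 3 on, 1787 peaks (8.95%) were left in fl/fl and 10.5% of the list in ΔIE. Of called length, the shares were 12.6% and 14.6%. A reciprocal overlap of 50% left 10.9% and 8.71% shared, and later-intron peaks of the other library only 21.8% and 16.7%. By the gene of the nearest TSS, 69 and 96 listed genes, and 13 and 22 synapse genes, had a later-intron peak. With a log2 limit of 1, 609 hosts had similar length. These alternatives differ from the reported setting in the peaks or limits they use by construction. The share of later-intron peaks was higher in ΔIE under the alternatives for which it was computed, except the common lowest signal.

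No paired analysis was possible because there was only 1 library of either genotype to pair. Depth is unknown, so how much it limits the faint peaks could not be read from the lists.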

Other observations

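Across chromosomes, the share of later-intron peaks ran from 10.8% of the peaks on chromosome 11 to 20.2% on chromosome 18 in fl/fl (95% Wilson intervals 9.37% to 12.4% and 17.2% to 23.5%), and from 13.1% on chromosome 15 to 21.4% on chromosome 18 in ΔIE. Chromosome 14 came next in both lists, with 17.4% and 19.9%. The X chromosome had 1 peak in fl/fl and 5 in ΔIE, none of them in a later intron. The host transcript was a predicted RefSeq model for 57.0% of the later-intron peaks in either list.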
